A study of Mus musculus with 12 samples.

Results

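The genes described here are 33 genes that mark microglia and macrophages, taken by name from a list of marker genes. They include receptors, complement subunits, adapter proteins, lysosomal proteins and transcription factors of these cells. All 33 were on the array, and all 33 passed the filter on low values, among 11716 genes tested. Microglia are the resident phagocytes of the brain. They arise from the yolk sac, depend on the receptor Csf1r, and watch their surroundings through purinergic and chemokine receptors. Border macrophages are a related population that lies beside vessels and in the meninges, and is told apart by Mrc1 and Cd163. Fragments of brain vessels can carry such cells along with endothelial and mural cells.

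The study compared mice that lack Notch3, a receptor of mural cells whose human counterpart is mutated in the small vessel disease CADASIL, with littermate controls. Both genotypes were on the C57BL/6 strain and 2 months of age, and 3 mice of each genotype were used. Total RNA of cerebral and of cerebellar microvascular fragments was hybridised separately, which gave 12 arrays in 4 groups of 3: control cerebral, knockout cerebral, control cerebellar and knockout cerebellar. The replicate number was read as the mouse, so that each of the 6 mice gave a cerebral and a cerebellar array. The labels used here do not say how the null allele was made or how the fragments were isolated. Values are log2 signals, where a step of 1 is a doubling. Levels of different genes are not compared, because each probe set has its own response.

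The Notch3 probe set read between 10.84 and 12.02 on the control arrays and between 2.48 and 3.58 on the knockout arrays, in accord with the labels. Arrays within a group correlated at r between 0.991 and 0.996 over all tested genes. The array medians lay between 3.24 and 3.30. The median deviation of the 19 endothelial genes tested lay between -0.06 and 0.11 on all arrays. Of 17 mural cell genes, a list that includes Notch3, 12 fell in knockout cerebral fragments. In such bulk RNA, fewer or more cells of a type and less or more RNA per cell cannot be told apart.

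PU.1 is a transcription factor on which microglia and macrophages depend. The RefSeq promoters (GRCm38.p6, 250 bases before to 50 after each start site) of 26 of the 33 genes were searched on both strands for the word GAGGAAG, the purine-rich core that PU.1 is known to prefer. It was present in 11 of the 26, or 42.3%, against 15.4% of the 27025 genes in the promoter table and 13.6% of its 32851 promoters of that length. Of the 18 genes that rose in knockout cerebral fragments, 13 had a promoter in the table and 6 of those held the word. These 6 are shown with the word, or its reverse complement CTTCCTC, in capitals, followed by the promoters of Lpxn and Cd84, which had the largest changes and in which these letters do not occur. A match describes letters in a window and not a bound site.
Hpgds promoter, GRCm38.p6 chr6:65144681-65144980, minus strand: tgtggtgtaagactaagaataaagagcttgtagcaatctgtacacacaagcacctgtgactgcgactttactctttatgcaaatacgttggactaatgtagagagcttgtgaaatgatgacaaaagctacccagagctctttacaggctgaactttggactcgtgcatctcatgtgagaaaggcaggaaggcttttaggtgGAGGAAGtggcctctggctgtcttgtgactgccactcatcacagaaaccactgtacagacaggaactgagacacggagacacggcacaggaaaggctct
P2ry13 promoter, GRCm38.p6 chr3:59210833-59211132, minus strand: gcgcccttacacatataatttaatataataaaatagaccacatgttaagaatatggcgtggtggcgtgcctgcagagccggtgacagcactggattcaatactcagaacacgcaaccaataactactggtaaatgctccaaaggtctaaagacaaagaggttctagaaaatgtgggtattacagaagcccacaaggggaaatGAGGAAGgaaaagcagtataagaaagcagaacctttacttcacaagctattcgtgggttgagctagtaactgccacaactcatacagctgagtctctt
Trem2 promoter, GRCm38.p6 chr17:48346151-48346450, plus strand: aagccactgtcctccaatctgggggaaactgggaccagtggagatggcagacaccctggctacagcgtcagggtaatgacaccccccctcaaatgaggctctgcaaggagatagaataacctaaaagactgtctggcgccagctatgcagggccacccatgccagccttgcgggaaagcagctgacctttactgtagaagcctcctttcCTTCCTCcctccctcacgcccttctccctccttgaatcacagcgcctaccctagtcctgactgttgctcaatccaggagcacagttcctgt
Fcgr3 promoter, GRCm38.p6 chr1:171059354-171059653, minus strand: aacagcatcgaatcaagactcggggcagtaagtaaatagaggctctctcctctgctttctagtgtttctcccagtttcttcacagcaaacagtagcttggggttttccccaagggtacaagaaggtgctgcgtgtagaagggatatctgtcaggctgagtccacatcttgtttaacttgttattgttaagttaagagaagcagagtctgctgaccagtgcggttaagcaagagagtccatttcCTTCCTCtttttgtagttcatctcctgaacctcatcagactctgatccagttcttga
Ctss promoter, GRCm38.p6 chr3:95526536-95526835, plus strand: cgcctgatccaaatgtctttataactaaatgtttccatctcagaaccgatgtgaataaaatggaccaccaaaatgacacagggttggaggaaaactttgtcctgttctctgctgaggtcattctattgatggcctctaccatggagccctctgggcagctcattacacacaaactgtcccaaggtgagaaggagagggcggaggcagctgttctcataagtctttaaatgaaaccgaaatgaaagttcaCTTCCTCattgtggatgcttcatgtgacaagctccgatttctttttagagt
C1qc promoter, GRCm38.p6 chr4:136892865-136893164, minus strand: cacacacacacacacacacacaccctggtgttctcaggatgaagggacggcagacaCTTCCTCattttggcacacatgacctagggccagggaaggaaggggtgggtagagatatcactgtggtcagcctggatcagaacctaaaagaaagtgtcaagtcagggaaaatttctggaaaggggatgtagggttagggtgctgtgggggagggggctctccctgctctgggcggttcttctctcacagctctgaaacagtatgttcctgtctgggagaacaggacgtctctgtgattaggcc
Lpxn promoter, GRCm38.p6 chr19:12795943-12796242, plus strand: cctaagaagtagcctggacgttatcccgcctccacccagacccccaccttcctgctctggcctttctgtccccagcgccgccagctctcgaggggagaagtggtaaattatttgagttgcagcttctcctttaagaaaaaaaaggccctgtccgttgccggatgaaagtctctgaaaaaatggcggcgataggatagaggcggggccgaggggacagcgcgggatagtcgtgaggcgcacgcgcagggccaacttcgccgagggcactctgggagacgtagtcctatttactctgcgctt
Cd84 promoter, GRCm38.p6 chr1:171839447-171839746, plus strand: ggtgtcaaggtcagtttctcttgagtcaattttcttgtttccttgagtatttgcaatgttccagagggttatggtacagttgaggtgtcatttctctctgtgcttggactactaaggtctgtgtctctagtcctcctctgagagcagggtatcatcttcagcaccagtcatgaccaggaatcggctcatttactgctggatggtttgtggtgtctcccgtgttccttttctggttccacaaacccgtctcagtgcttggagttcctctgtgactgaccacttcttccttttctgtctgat

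Most of these genes were higher in knockout than in control cerebral fragments. At an adjusted p under 0.05 in the limma fit, 18 of 33 rose and 0 fell, against 2.45% and 3.93% of all tested genes. The knockout value exceeded the control value on average for 32 of 33, and 30 had an unadjusted p under 0.05. The median change of the 33 was 0.85 on the log2 scale, where that of all genes was -0.01. The 3 knockout arrays lay above all 3 control arrays for 25 genes and below them for 1 gene, Mrc1, against 10.1% and 14.3% of all genes. The count of 18 fell to 9 or 5 when the first or the second control cerebral array was left out, and to 7 or 5 when the first or the third knockout cerebral array was. A fit to the 6 cerebral arrays alone called 1, Lpxn, and a fit with the mean of 40 other myeloid genes as a covariate called 0 and gave a median of 0.14. For these refits, and the later ones with arrays left out, the share of all genes called is not given.

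**Figure D1:**
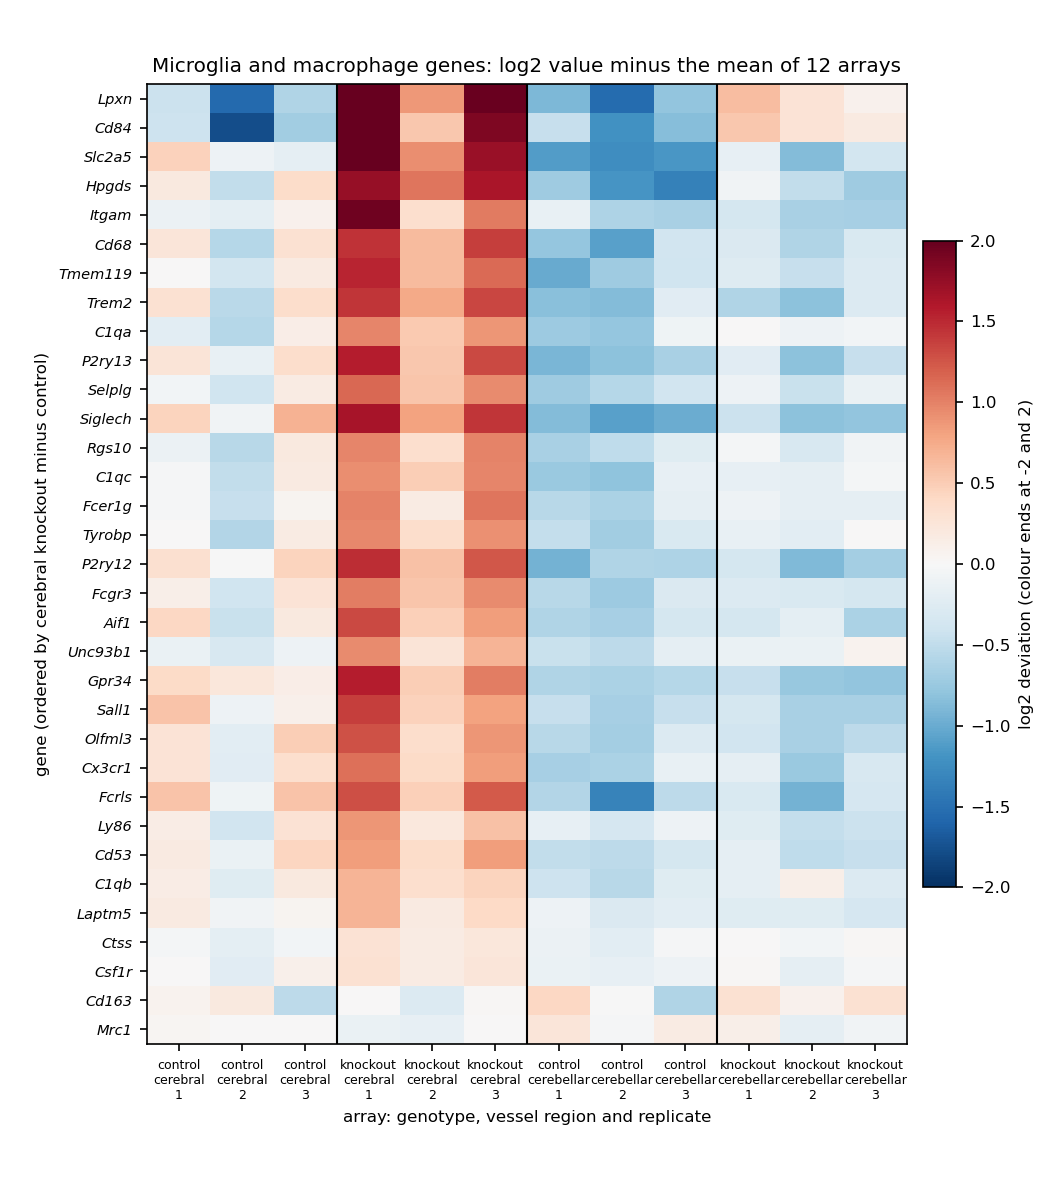
Each gene's log2 value minus its mean over the 12 arrays, with genes in rows ordered by the change in cerebral fragments and arrays in columns by group. Red is above and blue below the gene's mean; the 3 knockout cerebral columns are red for nearly every gene except Mrc1 and Cd163 at the bottom.

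Lpxn encodes leupaxin, a paxillin-related adapter of the adhesion sites of blood cells and macrophages. Its signal was 6.20, 5.08 and 6.02 in control and 8.63, 7.49 and 8.60 in knockout cerebral fragments, and 5.73, 5.08 and 5.83 in control and 7.25, 6.90 and 6.72 in knockout cerebellar fragments. Every knockout array was above every control array of the same region. The knockout minus control difference of Lpxn was 2.48 (SE 0.37, adjusted p = 0.00317) in cerebral and 1.41 (SE 0.37, adjusted p = 0.0660) in cerebellar fragments. Cd84, a self-binding receptor of the SLAM family on leukocytes, had the other change above 2. Its log2 values were 6.75, 5.39 and 6.47 in control and 9.17, 7.70 and 9.03 in knockout cerebral fragments, and 6.70, 5.95 and 6.31 in control and 7.69, 7.43 and 7.34 in knockout cerebellar fragments. Control cerebral replicate 2 was the lowest of all 12 arrays for both genes, and knockout cerebral replicate 2 was lower than the other knockout cerebral arrays. In cerebral fragments Cd84 differed by 2.43 (SE 0.42, adjusted p = 0.00763), and in cerebellar fragments by 1.17 (SE 0.42, adjusted p = 0.183). The change of Lpxn in cerebral fragments passed the threshold in 15 of 16 alternative settings, and that of Cd84 in 14 of 16.

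**Figure D2:**
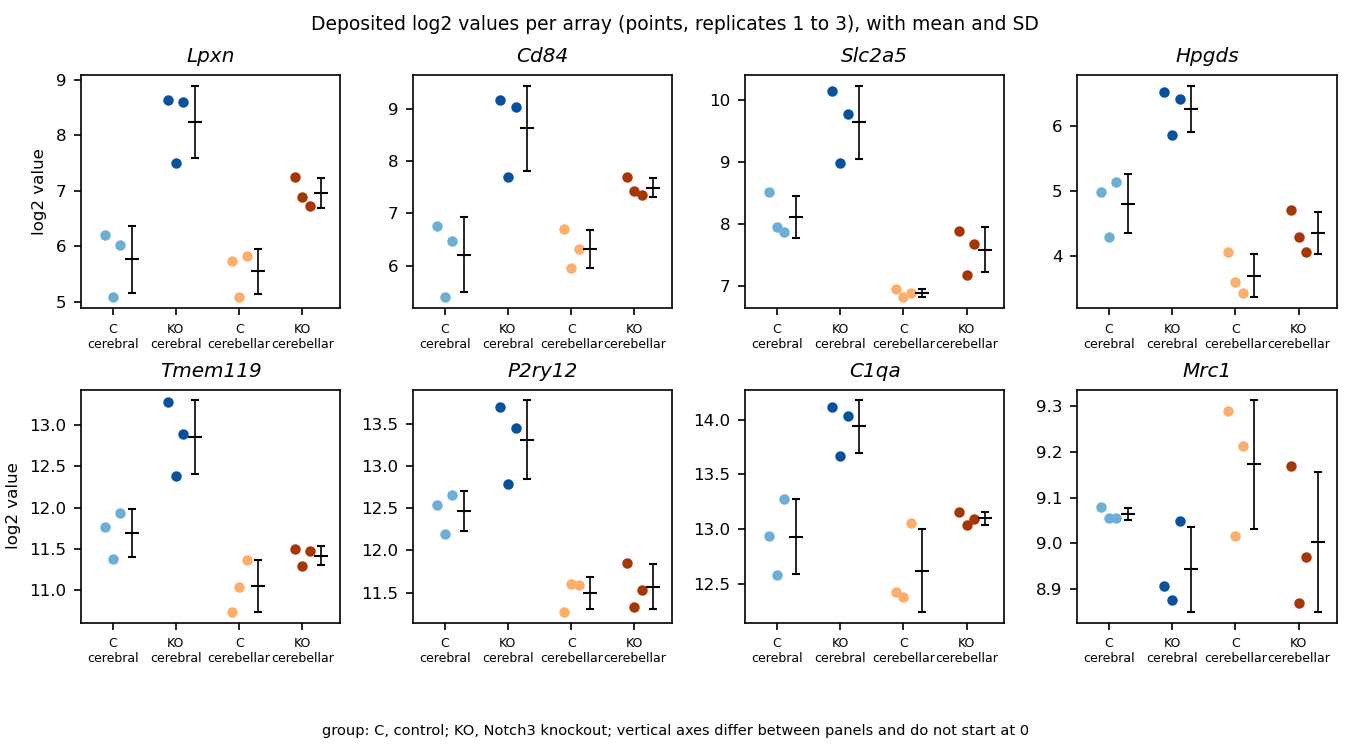
Log2 values of 8 genes on every array, grouped by genotype (C, control; KO, knockout) and region, with the mean and SD of 3 arrays beside the points. Lpxn, Cd84 and Slc2a5 are higher on all knockout arrays of each region, and for the other 5 genes the genotypes overlap in cerebellar fragments.

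Slc2a5, the fructose transporter GLUT5 that in the brain marks microglia, came next in size. It read 8.51, 7.96 and 7.89 in control and 10.16, 8.99 and 9.79 in knockout cerebral fragments, and 6.95, 6.82 and 6.90 in control and 7.89, 7.19 and 7.69 in knockout cerebellar fragments. The knockout arrays were above the control arrays in each region without overlap. For Slc2a5 the change was 1.52 (SE 0.28, adjusted p = 0.0112) in cerebral against 0.70 (SE 0.28, adjusted p = 0.243) in cerebellar fragments. Hpgds makes prostaglandin D2 in haematopoietic cells. Its values were 4.98, 4.29 and 5.14 in control and 6.51, 5.85 and 6.41 in knockout cerebral fragments, and 4.06, 3.59 and 3.43 in control and 4.70, 4.29 and 4.06 in knockout cerebellar fragments. The cerebral groups did not overlap, whereas in cerebellar fragments knockout replicate 3 lay just below control replicate 1. Hpgds differed between knockout and control by 1.46 (SE 0.27, adjusted p = 0.0107) in cerebral and 0.65 (SE 0.27, adjusted p = 0.251) in cerebellar fragments.

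Tmem119, a membrane protein that separates microglia from other macrophages, rose in cerebral fragments. The values were 11.77, 11.38 and 11.94 in control and 13.28, 12.39 and 12.89 in knockout cerebral fragments, and 10.74, 11.05 and 11.37 in control and 11.50, 11.30 and 11.48 in knockout cerebellar fragments. The knockout minus control difference of Tmem119 was 1.16 (SE 0.23, adjusted p = 0.0151) in cerebral and 0.37 (SE 0.23, adjusted p = 0.480) in cerebellar fragments. Among the purinergic receptors, P2ry12 senses ADP and guides microglial processes to injured vessels, and P2ry13 is its close relative. For P2ry12 the arrays read 12.53, 12.20 and 12.66 in control and 13.69, 12.79 and 13.45 in knockout cerebral fragments, and 11.27, 11.61 and 11.59 in control and 11.85, 11.33 and 11.53 in knockout cerebellar fragments. P2ry13 read 11.73, 11.33 and 11.83 in control and 13.04, 12.01 and 12.80 in knockout cerebral fragments, and 10.56, 10.66 and 10.82 in control and 11.25, 10.66 and 11.01 in knockout cerebellar fragments. Both receptors were higher on all 3 knockout cerebral arrays, and their cerebellar groups overlapped. In cerebral fragments P2ry13 differed by 0.99 (SE 0.25, adjusted p = 0.0448), and in cerebellar fragments by 0.29 (SE 0.25, adjusted p = 0.634). For P2ry12 the change was 0.85 (SE 0.23, adjusted p = 0.0553) in cerebral against 0.08 (SE 0.23, adjusted p = 0.919) in cerebellar fragments.

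The fractalkine receptor Cx3cr1 and the growth factor receptor Csf1r, whose ligands maintain microglia, did not pass the threshold with their brightest probe sets. Cx3cr1 read 13.18, 12.68 and 13.24 in control and 14.01, 13.29 and 13.74 in knockout cerebral fragments, and 12.25, 12.27 and 12.76 in control and 12.73, 12.16 and 12.58 in knockout cerebellar fragments. The signal of Csf1r was 14.15, 13.91 and 14.25 in control and 14.45, 14.31 and 14.39 in knockout cerebral fragments, and 14.02, 13.98 and 14.05 in control and 14.17, 13.97 and 14.12 in knockout cerebellar fragments. The knockout cerebral arrays nevertheless lay above all control cerebral arrays for both genes. Cx3cr1 differed between knockout and control by 0.65 (SE 0.23, adjusted p = 0.141) in cerebral and 0.06 (SE 0.23, adjusted p = 0.939) in cerebellar fragments. The knockout minus control difference of Csf1r was 0.28 (SE 0.09, adjusted p = 0.102) in cerebral and 0.07 (SE 0.09, adjusted p = 0.775) in cerebellar fragments. Siglech, a sialic acid binding receptor found on microglia and plasmacytoid dendritic cells, passed it. Siglech values were 9.37, 8.85 and 9.61 in control and 10.57, 9.73 and 10.35 in knockout cerebral fragments, and 8.05, 7.84 and 7.93 in control and 8.49, 8.10 and 8.12 in knockout cerebellar fragments. In cerebral fragments Siglech differed by 0.94 (SE 0.23, adjusted p = 0.0417), and in cerebellar fragments by 0.30 (SE 0.23, adjusted p = 0.596). Siglech had no overlap between genotypes in either region.

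The complement component C1q, which tags synapses and debris for uptake, is made in the brain chiefly by microglia from the 3 neighbouring genes C1qa, C1qb and C1qc on chromosome 4. C1qa read 12.93, 12.58 and 13.27 in control and 14.12, 13.66 and 14.03 in knockout cerebral fragments, and 12.43, 12.38 and 13.05 in control and 13.16, 13.04 and 13.09 in knockout cerebellar fragments. The brightest C1qb probe set gave 14.69, 14.29 and 14.73 in control and 15.22, 14.87 and 14.99 in knockout cerebral fragments, and 14.13, 13.99 and 14.30 in control and 14.36, 14.65 and 14.26 in knockout cerebellar fragments. C1qc gave 12.80, 12.34 and 13.01 in control and 13.76, 13.33 and 13.81 in knockout cerebral fragments, and 12.09, 12.03 and 12.67 in control and 12.67, 12.65 and 12.79 in knockout cerebellar fragments. In cerebral fragments all 3 subunits were higher on every knockout array than on any control array. In cerebellar fragments control replicate 3 reached into the knockout range for all 3. For C1qa the change was 1.01 (SE 0.21, adjusted p = 0.0189) in cerebral against 0.48 (SE 0.21, adjusted p = 0.283) in cerebellar fragments. C1qc differed between knockout and control by 0.91 (SE 0.21, adjusted p = 0.0283) in cerebral and 0.44 (SE 0.21, adjusted p = 0.322) in cerebellar fragments. The knockout minus control difference of C1qb was 0.45 (SE 0.15, adjusted p = 0.107) in cerebral and 0.29 (SE 0.15, adjusted p = 0.374) in cerebellar fragments.

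Trem2, a lipid-sensing receptor, signals through the adapter Tyrobp. Trem2 read 9.06, 8.21 and 9.11 in control and 10.18, 9.51 and 10.10 in knockout cerebral fragments, and 7.91, 7.88 and 8.53 in control and 8.15, 7.93 and 8.47 in knockout cerebellar fragments. For its partner Tyrobp the signals were 12.12, 11.53 and 12.28 in control and 13.07, 12.47 and 13.03 in knockout cerebral fragments, and 11.64, 11.42 and 11.80 in control and 11.97, 11.91 and 12.12 in knockout cerebellar fragments. In cerebral fragments the genotypes did not overlap for either gene. In cerebral fragments Trem2 differed by 1.13 (SE 0.28, adjusted p = 0.0412), and in cerebellar fragments by 0.08 (SE 0.28, adjusted p = 0.939). For Tyrobp the change was 0.88 (SE 0.21, adjusted p = 0.0331) in cerebral against 0.38 (SE 0.21, adjusted p = 0.408) in cerebellar fragments. Fcer1g, an adapter related to Tyrobp, and the IgG receptor Fcgr3 rose as well in cerebral fragments, by 0.89 (SE 0.23, adjusted p = 0.0481) and 0.84 (SE 0.18, adjusted p = 0.0232). Aif1, also called Iba1 and used to stain microglia, did not pass. Its log2 signals were 9.73, 8.87 and 9.50 in control and 10.63, 9.80 and 10.15 in knockout cerebral fragments, and 8.72, 8.65 and 8.96 in control and 8.96, 9.12 and 8.68 in knockout cerebellar fragments. Aif1 differed between knockout and control by 0.82 (SE 0.25, adjusted p = 0.0811) in cerebral and 0.15 (SE 0.25, adjusted p = 0.842) in cerebellar fragments. Trem2 and Aif1 lie on chromosome 17, as does Notch3, and a part of that position in their values was not tested.

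Cd68, a protein of late endosomes and lysosomes, rose in cerebral fragments. Cd68 signals were 10.62, 9.80 and 10.68 in control and 11.81, 11.01 and 11.76 in knockout cerebral fragments, and 9.60, 9.28 and 9.99 in control and 10.08, 9.76 and 10.06 in knockout cerebellar fragments. The knockout minus control difference of Cd68 was 1.16 (SE 0.28, adjusted p = 0.0380) in cerebral and 0.35 (SE 0.28, adjusted p = 0.615) in cerebellar fragments. Selplg, the ligand of P-selectin, and Rgs10, a brake on G protein signals, are both enriched in microglia. Selplg read 12.82, 12.49 and 13.05 in control and 14.03, 13.43 and 13.82 in knockout cerebral fragments, and 12.16, 12.30 and 12.50 in control and 12.77, 12.43 and 12.75 in knockout cerebellar fragments. Rgs10 read 11.19, 10.76 and 11.51 in control and 12.29, 11.65 and 12.30 in knockout cerebral fragments, and 10.66, 10.81 and 11.08 in control and 11.27, 10.99 and 11.25 in knockout cerebellar fragments. Their knockout cerebral arrays were all above their control cerebral arrays. In cerebral fragments Selplg differed by 0.98 (SE 0.18, adjusted p = 0.0107), and in cerebellar fragments by 0.33 (SE 0.18, adjusted p = 0.414). For Rgs10 the change was 0.92 (SE 0.22, adjusted p = 0.0337) in cerebral against 0.32 (SE 0.22, adjusted p = 0.527) in cerebellar fragments. Unc93b1, which carries nucleic acid sensing Toll-like receptors to endosomes, rose by 0.81 (SE 0.16, adjusted p = 0.0141). The protease cathepsin S, Ctss, rose by 0.32 (SE 0.07, adjusted p = 0.0215) from a control mean of 14.82 ± 0.09 (SD, n = 3).

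The remaining genes did not pass in cerebral fragments. The integrin Itgam, or CD11b, differed by 1.19 (SE 0.32, adjusted p = 0.0585), with knockout arrays at 8.10, 6.48 and 7.20 against control arrays at 6.03, 5.95 and 6.24. Its knockout arrays spread more widely than those of any other of the 33 genes except Cd84. Gpr34, a lysophospholipid receptor, differed by 0.78 (SE 0.22, adjusted p = 0.0629). Sall1, a transcription factor that keeps microglial identity, differed by 0.69 (SE 0.23, adjusted p = 0.105). The secreted protein Olfml3 and the Fc receptor-like Fcrls differed by 0.65 and 0.64, with adjusted p = 0.142 and 0.269. Laptm5, Ly86 and Cd53 differed by 0.36, 0.55 and 0.53, with adjusted p = 0.103, 0.136 and 0.0916.

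Size of change depended on the probe set for the brightest genes. Of the 33 genes, 25 had 1 probe set and 8 had several, and the brightest was used throughout. For Csf1r the brightest set (mean 14.15) differed by 0.28, the next (13.51) by 0.63, and the dimmest (11.74) by 1.13 (adjusted p = 0.0156 among 19920 probe sets tested singly, 2% of which were called higher). The 2 sets of Cx3cr1 differed by 0.65 at a mean of 12.91 and by 1.38 at 7.56 (adjusted p = 0.0217). The C1qb sets gave 0.45, 0.51 and 0.88, and the last 2 passed (adjusted p = 0.0308 and 0.0259). Laptm5 gave 0.36 at a mean of 14.80 and 0.88 at 10.99 (adjusted p = 0.0236). Its dimmer tested sets gave 0.96 at 8.91 (adjusted p = 0.0779) and 0.25 at 4.69 (adjusted p = 0.0531), and did not pass. In these 4 genes the uncalled brightest set thus had a dimmer partner that passed. Cd53 did not share this, with 0.53 at a mean of 10.91 and 0.54 at 4.61 (adjusted p = 0.468). The highest value on any array was 16.29. Trem2 went the other way, since its dimmer set (mean 3.32) lay near the filter level of 3.27 and differed by 0.03.

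Mrc1 and Cd163, which mark border macrophages, did not share the rise. Mrc1 encodes the mannose receptor and Cd163 the scavenger receptor for haemoglobin. Mrc1 read 9.08, 9.06 and 9.06 in control and 8.91, 8.88 and 9.05 in knockout cerebral fragments, and 9.29, 9.02 and 9.21 in control and 9.17, 8.87 and 8.97 in knockout cerebellar fragments. Mrc1 differed between knockout and control by -0.12 (SE 0.09, adjusted p = 0.518) in cerebral and -0.17 (SE 0.09, adjusted p = 0.403) in cerebellar fragments. The knockout cerebral arrays were all below the control cerebral arrays, by a small margin. Cd163 signals were 6.18, 6.31 and 5.58 in control and 6.12, 5.83 and 6.13 in knockout cerebral fragments, and 6.53, 6.11 and 5.50 in control and 6.42, 6.20 and 6.42 in knockout cerebellar fragments. The knockout minus control difference of Cd163 was 0.01 (SE 0.25, adjusted p = 0.995) in cerebral and 0.30 (SE 0.25, adjusted p = 0.626) in cerebellar fragments. Of a further list of border macrophage genes, 12 of 20 passed the filter, and 1 rose and 0 fell in cerebral fragments, with a median change of -0.08. The gene that rose was the transcription factor Maf (0.59, SE 0.14, adjusted p = 0.0380), which microglia also express, and 0 genes of the list passed as higher when any control cerebral array, or knockout cerebral replicate 1 or 3, was left out. The perivascular macrophage gene Cbr2 differed by -1.15 (SE 0.35, adjusted p = 0.0858), Ms4a7 by -0.37, Lyve1 by 0.08 and Ms4a6c by 0.75 (SE 0.26, adjusted p = 0.128). Of the 12, 6 differed upwards and 6 downwards. The cerebral groups did not overlap for 2 genes in the higher and 4 in the lower direction, against 10.1% and 14.3% of all genes. The 12 are few, and no conclusion is drawn from these counts. Cerebral means in control and knockout were 6.58 and 5.94 for F13a1, 5.30 and 4.78 for Wfdc17, and 8.42 and 8.15 for Pf4. For Clec10a, which was not tested, they were 3.31 and 2.50. Folr2, Ccl8, Ccl24 and Siglec1 stayed at or under 2.45 on all arrays.

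Other microglia and myeloid genes gave counts near those of the 33. All 40 on the array passed the filter, and in cerebral fragments 15 rose and 0 fell, with a median change of 0.79. Among them were Havcr2, or TIM-3 (2.09, SE 0.33, adjusted p = 0.00437), Tlr7, a sensor of single-stranded RNA (1.55, SE 0.19, adjusted p = 7.8e-04), and Ltc4s, leukotriene C4 synthase (1.11, SE 0.21, adjusted p = 0.0110). Leaving out control cerebral replicate 2 reduced the 15 to 7, as did leaving out knockout cerebral replicate 1 or 3, and leaving out knockout cerebral replicate 2 raised it to 29. Of 24 phagocytosis and lysosome genes, 10 rose and 0 fell, with a median of 0.24. They included Ncf1, a subunit of the phagocyte oxidase (0.98, SE 0.23, adjusted p = 0.0306), Man2b1 (0.56), Hexa (0.51) and Ctsd (0.51), which encode lysosomal enzymes. That count dropped to 3, 2, 1 and 0 without control cerebral replicates 1 and 2 and knockout cerebral replicates 1 and 3 in turn.

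Genes that signal to microglia gave fewer calls. Of 19 tested, 3 rose and 1 fell in cerebral fragments. The risers are also expressed by microglia: Sirpa, the receptor for CD47 (1.03, SE 0.25, adjusted p = 0.0351), Syk, the kinase below Tyrobp (0.99, SE 0.24, adjusted p = 0.0347), and the TGF-beta receptor Tgfbr1 (0.64, SE 0.13, adjusted p = 0.0189). Axl, a receptor for Gas6 that vessel cells also carry, fell by 0.59 in cerebral (SE 0.08, adjusted p = 0.00201) and by 0.63 in cerebellar fragments (SE 0.08, adjusted p = 0.00142). The 2 ligands of Csf1r differed by -0.56 (Csf1, adjusted p = 0.0599) and -0.29 (Il34, adjusted p = 0.468) in cerebral fragments. The fractalkine gene Cx3cl1 differed by 0.14 and Tgfb1 by -0.13, and neither passed. The 4 calls became 2 without any single control cerebral replicate, and 1 without knockout cerebral replicate 1 or 3. Among 14 disease-associated microglia genes, 8 differed upwards and 6 downwards in cerebral fragments. Ccl6 rose (1.67, SE 0.27, adjusted p = 0.00498) and Axl fell, while Apoe (-0.02), Lpl (-0.29), Clec7a (-0.75) and Tlr2 (0.26) did not pass. Ccl3 did not pass in either region, with means of 5.60 in control and 7.13 in knockout cerebral fragments. Its cerebellar means were 7.87 in control and 9.37 in knockout.

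Markers of blood leukocytes were mostly at background. Of 18 blood leukocyte genes on the array, 14 stayed at or under the filter level on all 12 arrays, among them the T cell genes Cd3e, Cd3d and Cd3g and the neutrophil genes S100a8 and S100a9. Of the 4 tested, 0 passed in cerebral fragments, and 3 differed upwards and 1 downwards. Among them, Cd79b had a mean of 4.36 in control and 5.48 in knockout cerebral fragments. Of 8 red blood cell and platelet genes on the array, 3 stayed at or under the filter level on all arrays. Of the 3 tested, 0 passed in cerebral fragments. Ppbp and Gp9 of this list exceeded the level on too few arrays to be tested, with highest values of 8.43 and 4.50. Neuron genes gave 0 higher and 1 lower of 13, oligodendrocyte genes 0 and 1 of 9, astrocyte genes 1 and 1 of 16, and endothelial genes 0 and 0 of 19, with a median of 0.03. Mural cell genes, a list that includes the deleted Notch3 itself, moved with genotype, with 12 of 17 lower and a median of -0.86. Cspg4 is in both the mural and the oligodendrocyte list, with cerebral means of 10.49 in control and 9.59 in knockout. Fibroblast genes had 1 higher and 2 lower of 14. The part of these other cells in the microglial values was not tested.

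**Figure D3:**
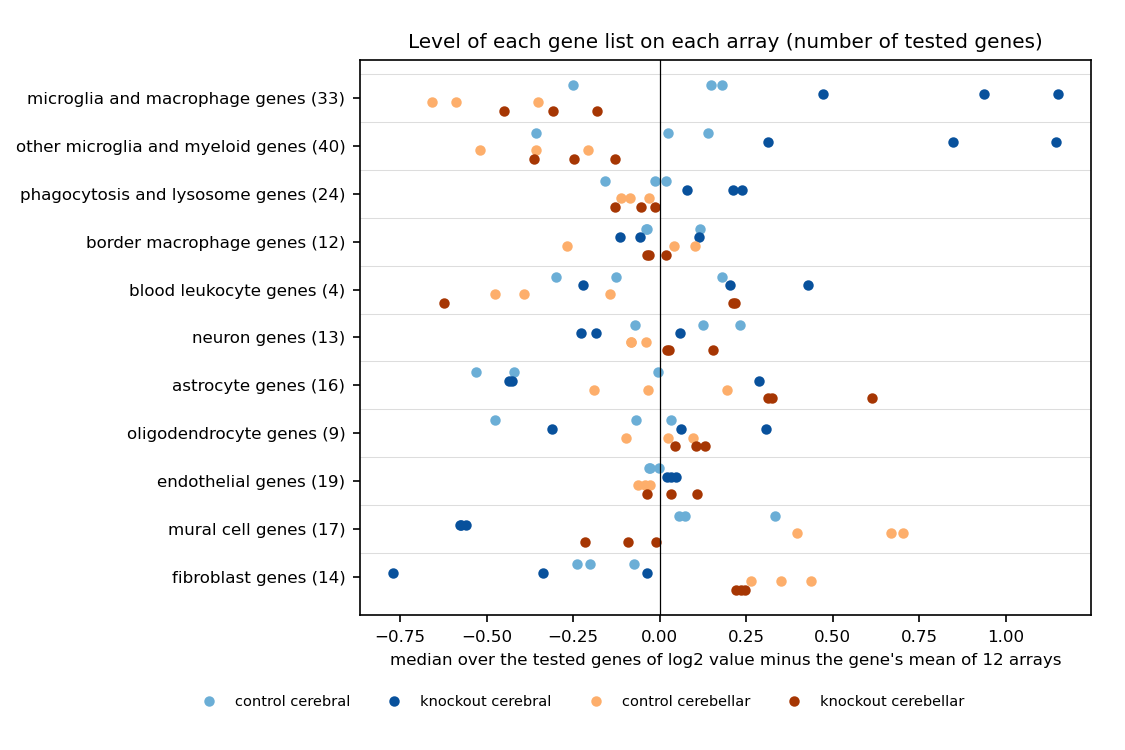
Median deviation of each gene list from its genes' means over 12 arrays (log2), with 1 point per array coloured by group. The microglia and macrophage genes and the other myeloid genes are highest on the 3 knockout cerebral arrays (0.47 to 1.15 for the former), border macrophage genes overlap between groups, and mural cell genes are lowest there.

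Array by array, most of the 33 genes followed a common pattern, with Mrc1 and Cd163 as exceptions. The median deviation of the 33 from their 12-array means was 1.15, 0.47 and 0.94 on the knockout cerebral arrays and 0.15, -0.25 and 0.18 on the control cerebral arrays. It was -0.18, -0.45 and -0.31 on the knockout cerebellar arrays and -0.59, -0.66 and -0.35 on the control cerebellar arrays. The lowest knockout cerebral array was therefore above the highest control cerebral array, and the cerebellar groups overlapped. Knockout cerebral replicate 1 was the highest of all 12 arrays for 27 genes and knockout cerebral replicate 3 for 4 genes, while control cerebellar replicate 2 was the lowest for 17. Mrc1 and Cd163 were instead highest on control cerebellar replicate 1. For the other myeloid genes the median deviation was 0.31 to 1.15 on the knockout cerebral arrays and -0.36 to 0.14 on the control cerebral arrays.

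In cerebellar fragments the knockout difference was smaller and no gene passed. Of the 33, 0 rose and 0 fell in the limma fit, where 1.06% of all tested genes were called higher and 3.17% lower. An unadjusted p under 0.05 was reached by 5, and 26 differed upwards, with a median of 0.29. The groups did not overlap for 6 genes, all higher in knockouts, and for 0 genes in the lower direction, against 10.4% and 11.7% of all genes. The 6 were Lpxn, Cd84, Slc2a5, Siglech, Tyrobp and Unc93b1. The count of 6 in 33 rests on few genes, and no conclusion is drawn from its distance to the background of 10.4%. With only the 6 cerebellar arrays in the fit, Cd84 and Lpxn passed (adjusted p = 0.0398 and 0.0364). Over all the settings tried, the adjusted p in cerebellar fragments ran from 0.0254 to 0.412 for Cd84 and from 0.00282 to 0.208 for Lpxn. Other members differed little, such as P2ry12 (0.08, SE 0.23), Trem2 (0.08, SE 0.28), Cx3cr1 (0.06, SE 0.23), Itgam (-0.08, SE 0.32) and Ly86 (-0.19, SE 0.19).

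**Figure D4:**
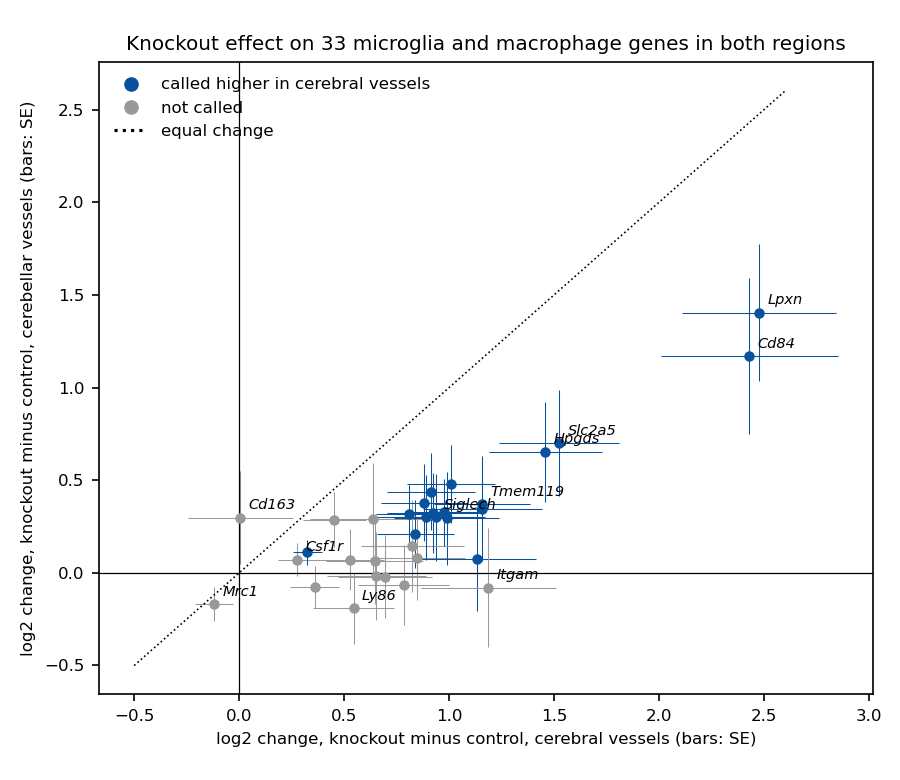
Knockout minus control in cerebral (horizontal) and cerebellar fragments (vertical), log2, for the 33 genes with bars of 1 SE; blue marks genes called in cerebral fragments and the dotted line marks equal change. Nearly all points lie below the line, with Lpxn and Cd84 far to the upper right and Mrc1 and Cd163 at its left end.

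With both regions of a mouse averaged, 3 of 33 genes passed and 0 were lower, against 1.02% higher and 3% lower among all genes. They were Lpxn (1.94, SE 0.30, adjusted p = 0.0230), Cd84 (1.80, SE 0.33, adjusted p = 0.0429) and Hpgds (1.06, SE 0.19, adjusted p = 0.0412). The mouse means of Lpxn were 5.96, 5.08 and 5.93 in controls and 7.94, 7.20 and 7.66 in knockouts. Those of Cd84 were 6.72, 5.67 and 6.39 against 8.43, 7.56 and 8.19, and those of Hpgds 4.52, 3.94 and 4.28 against 5.61, 5.07 and 5.24. The 3 knockout mice exceeded the 3 control mice for each of the 3 genes. The groups of mice did not overlap for 19 of 33 genes, all higher in knockouts, and for 0 in the lower direction, against 11.6% and 14.7% of all genes. The median over the 33 was 0.55, or 0.15 with the myeloid covariate, and 32 of 33 differed upwards. The count of 3 fell to 0 without control mouse 1, knockout mouse 1 or knockout mouse 3 and to 1 without control mouse 2, and rose to 6 without knockout mouse 2.

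Cerebellar fragments carried lower signals of these genes than cerebral fragments. In control mice 30 of 33 differed downwards, with a median of -0.46 (-0.29 with the myeloid covariate) and 18 at an unadjusted p under 0.05. Without regard to the mouse, 1 of 33 passed as lower and 0 as higher, where 0.333% and 1.95% of all genes did. That gene was Siglech, whose 3 control cerebellar arrays (8.05, 7.84 and 7.93) lay below its 3 control cerebral arrays (9.37, 8.85 and 9.61), a difference of -1.34 (SE 0.23, adjusted p = 0.0184). The call was lost without control cerebral replicate 1 or 3 or control cerebellar replicate 2 or 3, and 3 genes passed without control cerebral replicate 2. With the mouse as a replicate block, 15 of 33 passed as lower, against 2.29% of all genes in that fit, with Fcrls at -1.17 (adjusted p = 0.00120), Slc2a5 at -1.23 (0.00430), P2ry13 at -0.95 (0.00715), P2ry12 at -0.97 (0.0106) and Sall1 at -0.72 (0.0268). By their brightest probe sets, Csf1r (-0.09), Ctss (-0.02), Unc93b1 (-0.20) and Ly86 (-0.21) had small differences, as did Lpxn (-0.22) and Cd84 (0.11). The dimmer sets of Csf1r were not tested between regions.

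In knockout mice 27 of 33 genes were lower in cerebellar fragments and 0 higher in the fit without regard to the mouse. Of all genes, 2.96% were lower and 3.84% higher. The median was -1.15, or -0.28 with the myeloid covariate, and 31 of 33 had an unadjusted p under 0.05. Slc2a5 differed by -2.05 (SE 0.28, adjusted p = 0.00323), Siglech by -1.97 (SE 0.23, adjusted p = 0.00171), Hpgds by -1.91 (SE 0.27, adjusted p = 0.00352), P2ry12 by -1.74 (SE 0.23, adjusted p = 0.00235) and Gpr34 by -1.70 (SE 0.22, adjusted p = 0.00231). The 6 that did not pass were Lpxn, Cd84, Csf1r, Ctss, Mrc1 and Cd163, and the first 4 of these passed with the mouse as a block, where 6.21% of all genes were called lower. The count was 16 when knockout cerebral replicate 1 was left out, and 17 when knockout cerebral replicate 3, knockout cerebellar replicate 2 or knockout cerebellar replicate 3 was. Of the 40 other myeloid genes 28 were lower, among them Vav1 (-1.64, adjusted p = 0.00259) and P2ry6 (-1.58, adjusted p = 0.00565), and that number was 10 to 14 without any one of the same 4 arrays. The border macrophage list had 1 of 12 lower, and Mrc1 and Cd163 differed by 0.06 and 0.31. In the same comparison, 6 of 16 astrocyte genes, 8 of 17 mural cell genes and 7 of 14 fibroblast genes were higher in cerebellar fragments, and the part of these shares in the result was not tested.

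The test of whether the knockout effect differed between regions, made without regard to the mouse, gave 0 of 33 in either direction. Of all genes, 0.0171% were called higher and 0.0256% lower. The cerebellar minus the cerebral knockout difference was negative for 32 of 33 genes, with a median of -0.64 on the log2 scale. Of the 33, 10 had an unadjusted p under 0.05. Mrc1 is among the 32 although its difference was larger in size in cerebellar (-0.17) than in cerebral fragments (-0.12). With the mean of the other myeloid genes as a covariate the median gap was 0.013. The adjusted p of all 33 was 0.999. The largest gaps were those of Itgam (-1.27, SE 0.46), Cd84 (-1.26, SE 0.60), Lpxn (-1.07, SE 0.52) and Trem2 (-1.06, SE 0.40), and the exception in sign was Cd163 (0.29, SE 0.35). A difference between the regions is thus not shown for any single gene in this fit, which leaves out the pairing of regions by mouse.

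Each gene was also set against the mean of the 40 other myeloid genes on the same array, as a description with no test. That mean itself rose in knockouts, so a gene that does not rise falls on this scale, as 65.7% of all genes did on every knockout cerebral array. The share of all genes is therefore no background here, and the 40 genes, each set against the rest of their list, are given instead. This scale makes no allowance for probe set brightness, on which the size of change depended for some genes. Lpxn and Cd84 were dim (means 6.63 and 7.16), while the bright Csf1r, Ctss and Laptm5 differed by -0.48, -0.43 and -0.39 in cerebral fragments. C1qa, also bright at 13.15, differed by 0.25. The part of brightness was not tested. Of the 33 genes 5 lay higher on every knockout array than on every control array in both regions, against 4 of the 40, which were Havcr2, Tlr7, Pld4 and Abi3. Lpxn differed by 1.72 in cerebral and 1.31 in cerebellar fragments, Cd84 by 1.68 and 1.07, Slc2a5 by 0.77 and 0.60, Tmem119 by 0.41 and 0.27, and Selplg by 0.22 and 0.23. Havcr2 differed by 1.37 and 0.91. The relative levels of Lpxn were -2.89, -3.51 and -3.14 on control cerebral and -1.42, -1.76 and -1.19 on knockout cerebral arrays, and -2.92, -3.46 and -2.97 against -1.63, -1.72 and -2.07 on cerebellar arrays. The spread between knockout cerebral arrays thus narrowed for Lpxn, from an SD of 0.65 in the log2 values to 0.29. Ly86, a partner of a Toll-like receptor relative, and Mrc1 lay lower in both regions without overlap, as did 7 of the 40. Ly86 differed by -0.21 and -0.29, and Mrc1, whose log2 level changed little, by -0.87 and -0.27.

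**Figure D5:**
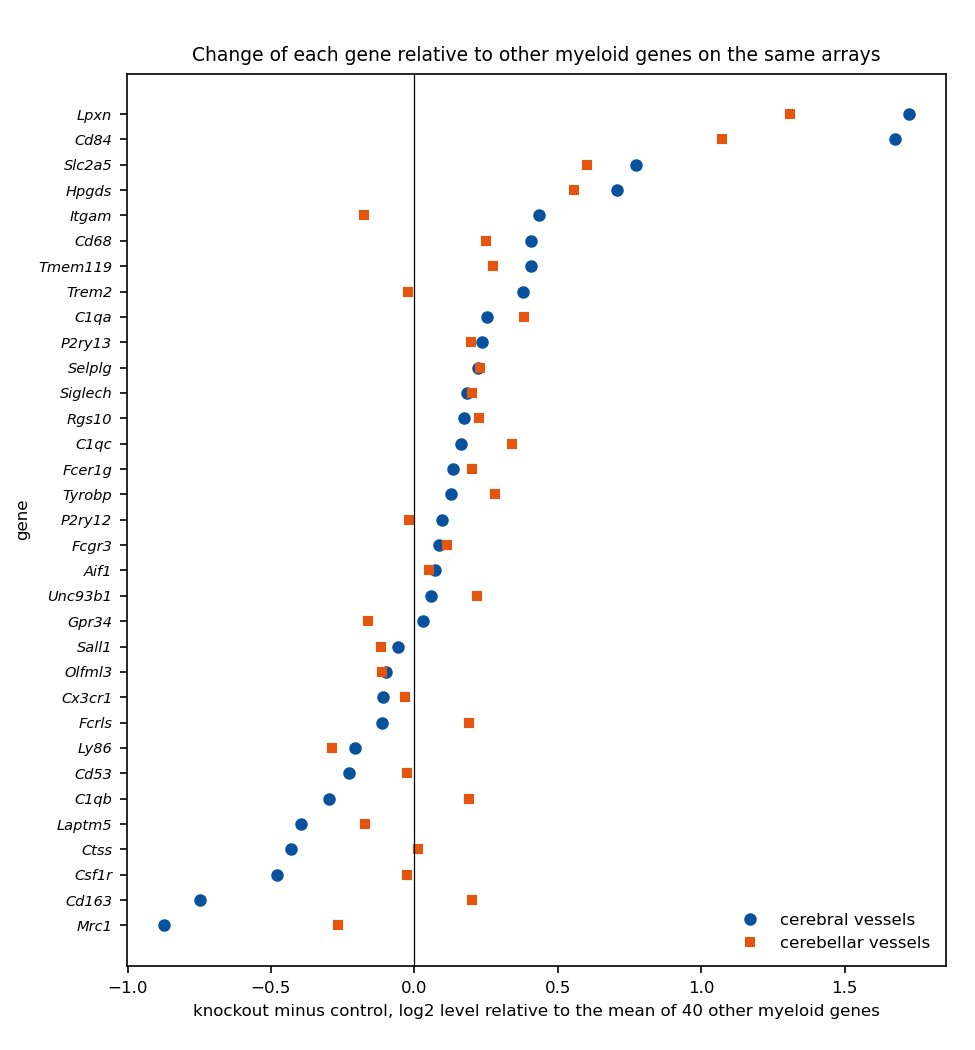
Knockout minus control difference of each gene after subtraction of the mean of 40 other myeloid genes on the same array (log2), for cerebral (circles) and cerebellar fragments (squares). Lpxn and Cd84 stand apart at above 1 in both regions, most genes lie within 0.5 of 0, and Mrc1 has the lowest cerebral value at -0.87. Differences in probe set brightness are not allowed for.

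On the same relative scale 12 of the 33 genes had their cerebellar arrays all below their cerebral arrays in both genotypes, and 0 had them all above. Of the 40 other myeloid genes, 5 were lower and 4 higher in this way. Siglech differed by -1.05 in control and -1.04 in knockout mice, Slc2a5 by -0.95 and -1.12, Fcrls by -0.89 and -0.58, Hpgds by -0.82 and -0.97, and P2ry12 by -0.69 and -0.80. The other 7 were Tmem119, P2ry13, Cx3cr1, Gpr34, Sall1, Olfml3 and Cd68. C1qa, by contrast, differed by -0.03 and 0.10, and Ly86 by 0.07 and -0.01. In knockout mice alone, Csf1r (0.64), Ctss (0.70), Mrc1 (0.999) and Cd163 (1.25) had all cerebellar arrays above all cerebral arrays. In control mice these genes differed by 0.19, 0.26, 0.39 and 0.305, and the regions overlapped.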

How the data were processed

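Affymetrix Mouse Genome 430 2.0 arrays measured total RNA of microvascular fragments. The deposited values are log2 signals that the authors made with GCRMA 2.32.0, per the submitters' processing notes, which name no other setting. GCRMA corrects background and normalizes all arrays together, which compresses values near background. Of 45101 probe sets, 34958 named 1 gene. Probe sets above the median of all values (3.27) on at least 3 of 12 arrays were kept, and the brightest per gene was used, which left 11716 genes. The members and lists were chosen with earlier results of these data known. Genes named with values were the members called with no overlap, the defining members, and up to 4 genes of each other list, called genes first; a few more were chosen after their values were seen.

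Differences were tested with limma 3.58.1 in R 4.3.3 (lmFit and eBayes, two-sided) on 4 group means with 8 residual degrees of freedom, or on mouse means with 4, and adjusted by Benjamini-Hochberg over all genes at 0.05. The steps were tested on simulated data. The labels name biological replicates, which were read as separate mice. Same-numbered arrays of both regions deviated together (r from 0.371 to 0.705), so they were averaged for the mouse means. The main fits of the regions, and of the difference between the regional effects, took no account of the mouse. Fits with the mouse as a block were alternatives. The labels do not state whether a number pairs mice across genotypes, and the main fits used no such pairing. A preparation shared by number was not tested. Only 3 arrays per group limit the precision. Levels relative to the other myeloid genes were computed after seeing the data. The alternatives were other filters, scalings, weights, blocks, covariates and left-out arrays.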

Additional observations from a re-analysis of the deposited data

How the results depend on the processing

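Of 84 alternative medians of the 33 genes 83 kept the direction of the reported one. The exception was the difference between the regional effects, at 0.013 with the myeloid covariate in place of -0.64. That covariate also brought the medians to 0.14 in cerebral fragments, 0.15 for mouse means and -0.28 for the regions in knockout mice. All 345 alternative values of called genes in the knockout comparisons kept their direction, and 229 stayed called. The numbers called varied more. Among these refits, the share of all genes is given only with the mouse as a block (2.29% lower in controls, 6.21% in knockouts). A changed count of the 33 is therefore not told apart from a change of calls over all genes. In cerebral fragments 18 became 9 with no filter, 1 with only the 6 arrays compared, 0 with the myeloid covariate, 29 with the replicate block, and 5 to 27 with an array left out. In cerebellar fragments 0 became 1 with array weights, 3 with the covariate (Ly86 lower), 3 with the replicate block, 2 with only 6 arrays, and 0 with any array left out. For mouse means 3 became 0 with no filter, 10 with array weights, 0 with the covariate, 10 with the replicate block and 0 to 6 with a mouse left out. For the regions in control mice 1 became 3 with the filter at the 75th percentile, 2 with quantile normalization, 3 with a robust trended fit, 17 with array weights, 4 with the covariate, 15 with the mouse as replicate block, 12 with it as a random block, 5 with only 6 arrays, and 0 to 3 with an array left out. In knockout mice 27 became 0 with the covariate, 15 with only 6 arrays, 31 with the replicate block and 16 to 29 with an array left out. The median difference between the regional effects ran from -0.88 to -0.43 with an array left out. The causes were not tested. The covariate moves with genotype, so it takes up part of the same difference. Same-numbered mice of the 2 genotypes correlated at 0.194, 0.180 and 0.007 in cerebral and 0.259, 0.031 and -0.166 in cerebellar fragments. List counts without single arrays and probe sets tested singly were added after seeing the data, as were medians with array weights or the covariate.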
